A study of Mus musculus with 6 samples.

Results

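Heat shock proteins, their DNAJ partners and the chaperonins were followed across the cell types of the mouse cerebellum. Members were all genes of the deposited count tables whose symbol begins with Hspa, Hspb, Hspd, Hspe, Hsph, Dnaja, Dnajb or Dnajc or is one of *Cct2* to *Cct8*, including longer forms of those symbols, with *Cryab* added, which gave 82 of 32286 genes. Roles were assigned by symbol. Thus, for example, *Hspa4l*, an HSP110-like exchange factor, counts as HSP70, and *Hspb11*, of intraflagellar transport, as a small heat shock protein. By this rule the members comprised 13 HSP70 proteins, the HSP110 protein *Hsph1*, 9 small heat shock proteins, 3 mitochondrial chaperonin genes, 4 DNAJA, 13 DNAJB and 28 DNAJC proteins, 9 genes of or related to the TRiC/CCT ring, and the HSP70- and HSPB-binding proteins *Hspbp1* and *Hspbap1*. Single nuclei came from whole cerebella, frozen or fresh, of 6 mice aged 12 weeks, with 1 library per mouse. The 3 SCA1 mice were *Pcp2-ATXN1[82Q]* transgenic animals of a line backcrossed to C57BL/6, and the 3 wild-type (WT) mice were C57BL/6 littermates without the transgene. Human *ATXN1* with a lengthened CAG repeat is driven by the *Pcp2* promoter in the SCA1 mice, and that promoter is active in Purkinje cells (PCs), so glia and granule neurons (GN) are not cells in which the transgene is meant to be expressed. None of the mice received a treatment, and the sources used here do not say which cerebella were frozen.

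HSP70 proteins bind unfolded stretches of other proteins and release them as ATP is hydrolyzed. J-domain proteins of the DNAJ classes bring substrates to HSP70 and speed up that hydrolysis, while HSP110 exchanges the spent nucleotide. Small heat shock proteins hold unfolded proteins without ATP, HSPD1 and HSPE1 form the folding chamber of mitochondria, and the TRiC ring folds actin and tubulin. On heat or other protein damage the factor HSF1 raises transcription of many of these genes through heat shock elements, and HSPA5 and DNAJC3 of the endoplasmic reticulum (ER) are raised through ER stress response elements. Nuclear inclusions of ATXN1 with a lengthened glutamine tract are known to hold HSP70 and DNAJ proteins.

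To show where these elements lie in the members, the promoters of 67 members (250 bases before to 50 after a start site, RefSeq, GRCm38.p6) were searched on both strands for a heat shock element, taken as GAA, TTC and GAA in turn or TTC, GAA and TTC in turn with 2 free bases between the units, and for the ER element, taken as CCAAT and CCACG with 9 free bases between them. *Hspa8*, *Cryab* and 13 other members were not searched. No member searched held both, so the matches of the 2 elements do not overlap. The heat shock letters were present in 4 members, 5.97% of those with a promoter against 0.662% of 27025 genes, and the ER letters in 2 members, 2.99% against 0.137%. The sequences below are given on the strand of the gene with 12 bases on either side and the matched letters in capitals.
*Hspd1*, chr1:55088052-55088088, minus strand: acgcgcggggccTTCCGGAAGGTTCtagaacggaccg
*Hspe1*, chr1:55088047-55088083, plus strand: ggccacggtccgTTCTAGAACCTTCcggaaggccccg
*Dnajb6*, chr5:29735840-29735876, plus strand: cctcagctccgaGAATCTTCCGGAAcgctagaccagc
*Hspa5*, chr2:34772013-34772055, plus strand: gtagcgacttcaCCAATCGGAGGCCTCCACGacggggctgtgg
*Dnajc3*, chr14:118937815-118937857, plus strand: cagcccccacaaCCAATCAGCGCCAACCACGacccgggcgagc
*Hspd1* and *Hspe1* lie head to head, and both sequences are read from opposite strands of the same stretch, 139 to 144 bases before the start of *Hspd1* and 84 to 89 before that of *Hspe1*, where a pair of matches overlaps. The *Dnajb6* match lies 46 or 127 bases before its start sites, the *Hspa5* match 65 and the *Dnajc3* match 105 bases. In *Hsph1* the match lies after the start site. A match is only a run of letters, and whether a factor binds there was not measured.

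Counts of unique molecular identifiers (UMIs, 1 per captured transcript) were summed per mouse over the nuclei that share a SingleR label, which gave 292 nuclei for PCs, 1243 for Bergmann glia (BG), 1014 for velate astrocytes (VA), 1384 for oligodendrocytes (OL) and 37532 for GN, of 45473 in all. The libraries held 18916647 to 98366627 UMIs, and WT mouse 2 was the shallowest, with a median of 2246.5 UMIs per nucleus. Human *ATXN1* had a UMI in 10 of 65, 10 of 52 and 11 of 29 PC nuclei of SCA1 mice 1, 2 and 3 and in 0 of 76, 41 and 29 of the WT mice, which over the 146 pooled WT nuclei allows a share of nuclei with a UMI of up to 2.05% by counting error alone and sets no limit on expression. Markers matched the labels, with 659 CPM (UMIs of a gene scaled by the total UMIs of the sum) of *Pcp2* in PCs and 3118 CPM of *Mbp* in OL over all mice together. Yet GN held 281 CPM of *Pcp2* and 398 CPM of *Mbp*, RNA of other cells, so each level below holds a share of such RNA that was not measured, and 254 barcodes occurred in 2 or more mice.

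Levels were first compared between cell types, as CPM of the sums, and a type was tested against the mean of the other 4 with mouse as a term. Of the 82 members, 60 had enough counts for this test. The other 22, among them *Hspa1a*, *Hspa1b*, *Hspb1*, *Hspb6* and *Hspb8*, reached a mean of at most 3.84 CPM in any of the 5 types. The counts of the stress-inducible *Hspa1a* and *Hspa1b* are thus near the floor in all 5 types, with mean levels of 0.492 to 2.15 CPM and 0.132 to 1.98 CPM. As these genes are near-identical copies, their split is uncertain. How many of their shared reads entered the counts is not known either, so their summed level may be higher.

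PCs had the most calls. They were higher (adjusted p of at most 0.05, at least 2-fold) for 6 members and lower for 2, which is 10% and 3.33% of the members tested against 14.1% and 21.2% of all genes. The 6 were *Hspa12a*, *Hspa5*, *Hspa4l*, *Dnajb4*, *Dnajc6* and *Hspbap1*, and the 2 were *Cryab* and *Hspa2*. The split depends on the scaling: with library size alone 4 members were higher and 12 lower, as the median of all genes moved from -0.13 to -0.58 on the log2 scale. The shares of all genes called with library size alone were not counted, so the 4 and 12 cannot be set against a background.

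**Figure D1:**
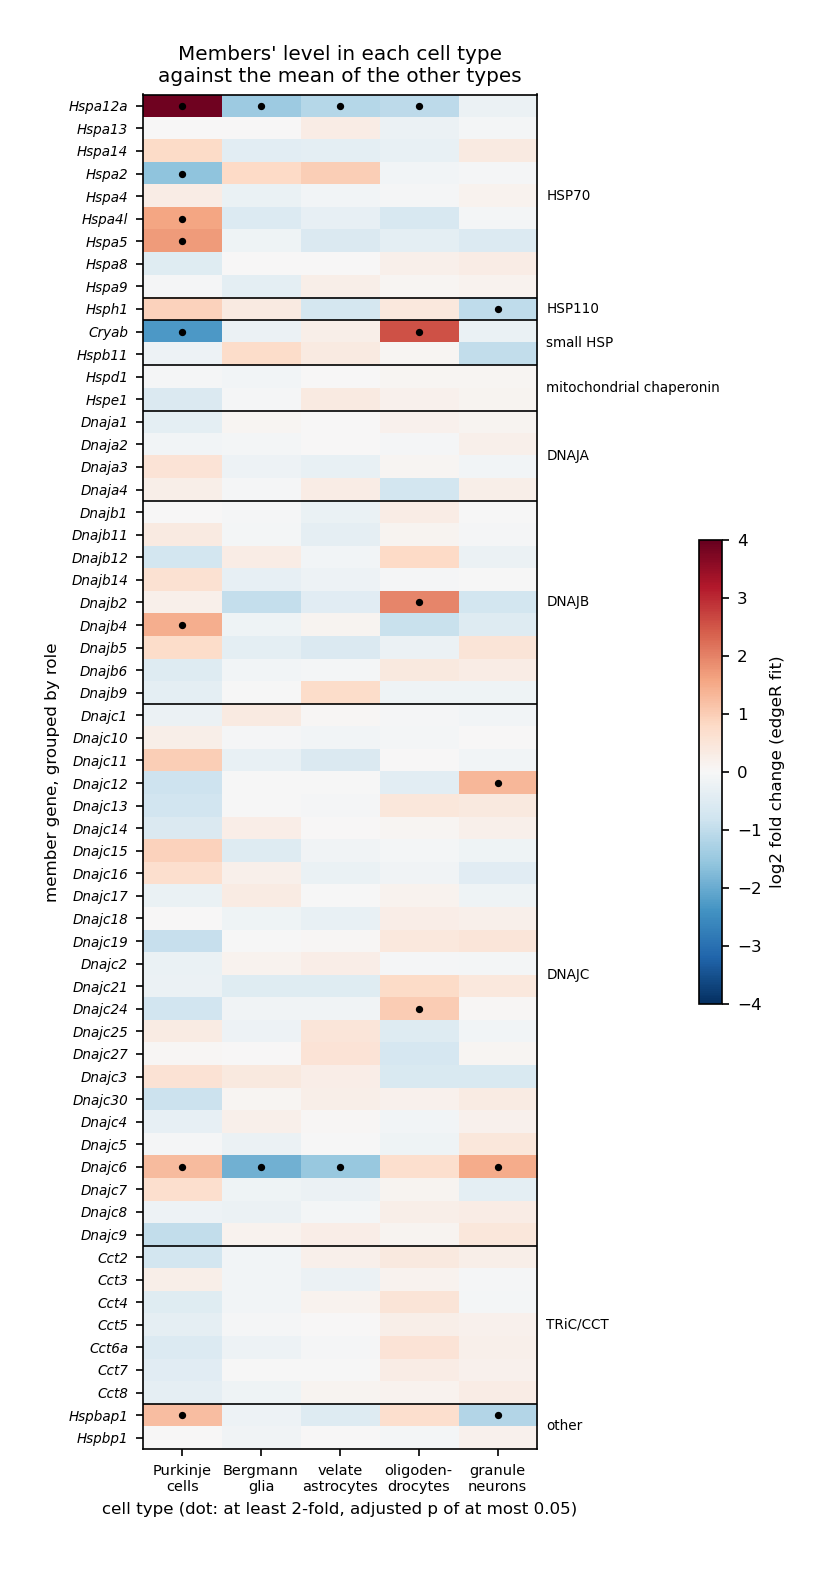
Heat map of the fitted log2 fold change of 60 members (rows, grouped by role) in each of 5 cell types (columns) against the mean of the other types, red for higher and blue for lower, with a dot where the call was made. *Hspa12a* in PCs (3.89) and *Cryab* in OL (2.56) are the strongest red cells, and the TRiC genes lie between -0.73 and 0.55 in every type.

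Among HSP70 genes, *Hspa12a* (chr19:58795750-58943654, minus strand, GRCm38, ENSMUSG00000025092) encodes a distant HSP70 relative. Its level in PCs was 156 CPM in the lowest, 208 in the median and 307 in the highest mouse. In no other main type did a mouse exceed 42.1 CPM, so the groups did not overlap, and the log2 difference in PCs was 3.89 ± 0.16 (SE, n = 6 mice; adjusted p 6.1e-18, edgeR quasi-likelihood test). It was lower in BG, VA and OL by the same test, with log2 differences of -1.46, -1.14 and -1.06. For these types the mean of the other 4 includes the high level of PCs. Mean levels were 13.5, 18.2 and 19.2 CPM in BG, VA and OL and 31.8 CPM in GN. A contrast that leaves out PCs was not run, so these calls do not set the 3 types apart from GN. Outside the main types, interneurons labelled Neuron.Gad1Gad2.Pvalb-Chrm2 had 78.3, 104 and 114 CPM in the lowest, median and highest mouse, and nuclei labelled Neuron.Slc17a6.Nrgn had 66.5, 83.3 and 109 CPM. The difference in OL was less than 2-fold without SCA1 mouse 3 (-0.97), WT mouse 2 (-0.98) or WT mouse 3 (-0.94).

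*Hspa5* (chr2:34771970-34777547, plus strand, ENSMUSG00000026864), the HSP70 of the ER also known as BiP, had 61.3, 139 and 260 CPM in the lowest, median and highest mouse in PCs. The medians of the other types lay between 51.1 CPM in VA and 58.9 CPM in BG, and the ranges overlapped with that of PCs, but within mice the log2 difference was 1.69 ± 0.11 (adjusted p 1.9e-13). *Hspa4l*, an HSP110-like exchange factor, was at 154, 179 and 232 CPM in PCs, and no mouse exceeded 140 CPM in another main type. Its log2 difference was 1.56 ± 0.10. PCs were not alone in this level, as interneurons labelled Neuron.Gad1Gad2.Pvalb-Chrm2, a label that was the most frequent one of a Seurat cluster in only 1 of the 6 mice, had 129, 188 and 209 CPM.

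*Hspa8*, the constitutive HSC70, had a mean of 354 ± 195 CPM (SD, n = 6) in GN, 342 ± 203 in OL, 310 ± 209 in VA, 286 ± 172 in BG and 153 ± 66.0 in PCs. No type was called 2-fold apart, and the log2 difference in PCs was -0.49 ± 0.13. *Hspa9*, the mitochondrial HSP70, ranged from 50.3 ± 9.66 CPM in PCs to 82.4 ± 23.0 in VA with no call. *Hspa2* was called lower in PCs on low counts, 16 UMIs over all mice, at a mean of 1.29 ± 0.864 CPM against 4.31 to 7.90 in the other types.

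*Hsph1*, the HSP110 of the cytosol, was called lower in GN, with 9.57, 15.9 and 35.9 CPM in the lowest, median and highest mouse against 29.3, 40.9 and 60.1 in PCs and 32.0, 44.2 and 64.4 in OL. The low level was shared by VA, with a mean of 22.1 CPM against 20.3 CPM in GN and 41.5 CPM in BG. In VA the log2 difference was -0.70, short of the 2-fold limit. The log2 difference in GN was -1.01 ± 0.20, just past the 2-fold limit, and short of it without SCA1 mouse 3 (-0.86), WT mouse 2 (-0.91) or WT mouse 3 (-0.84). Of the 9 genes grouped by symbol as small heat shock proteins only *Cryab* and *Hspb11* could be tested, and *Hspb11* encodes a subunit of intraflagellar transport.

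*Cryab* (chr9:50751325-50756636, plus strand, ENSMUSG00000032060), the alpha B-crystallin, was higher in OL, with 93.7 CPM in the lowest, 122 in the median and 278 in the highest mouse. Every mouse had more in OL than the highest mouse in any other main type, 72.6 CPM in GN, and the log2 difference was 2.56 ± 0.22 (adjusted p 8.2e-11). In GN the values were 72.6, 49.0 and 10.9 CPM in SCA1 mice 1, 2 and 3 and 66.6, 18.2 and 10.8 CPM in the WT mice, beside 544, 280 and 113 CPM and 602, 120 and 103 CPM of *Mbp*, an OL transcript, in the same nuclei. The part of OL RNA in the *Cryab* level of other types was not tested. In PCs *Cryab* was lower, at 8.22 ± 6.86 CPM. *Mbp* was lower there too, at 78.2 CPM over all mice together against 303 in BG, 434 in VA and 398 in GN. PC nuclei were also deeper, with a median of 36466.5 UMIs per nucleus against 5923 in GN. The part of depth or of RNA of other cells in this and other members lower in PCs was not tested.

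Among J-domain proteins *Dnajb2*, whose protein binds ubiquitin chains and is abundant in neurons, was higher in OL. It had 109, 139 and 228 CPM in the lowest, median and highest mouse there, and no mouse exceeded 53.4 CPM in another main type, with a log2 difference of 1.95 ± 0.12. *Dnajc24*, which acts in diphthamide synthesis, was also called in OL, at 122 ± 23.7 CPM and a log2 difference of 1.02 ± 0.07. *Dnajb4* was higher in PCs, with 70.0, 97.7 and 100 CPM against at most 77.0 CPM in another main type, so that the lowest PC value lay within the range of VA, and a log2 difference of 1.45 ± 0.08.

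*Dnajc6* (chr4:101496648-101642799, plus strand, ENSMUSG00000028528) encodes auxilin, which with HSC70 strips clathrin from vesicles. It had 257, 304 and 361 CPM in the lowest, median and highest mouse in GN, 158, 197 and 228 in PCs and 158, 190 and 245 in OL. In BG the same values were 24.6, 36.8 and 64.9 CPM and in VA 38.8, 48.2 and 83.9, below every mouse of the other 3 types. The log2 differences were 1.49 ± 0.12 in GN, 1.26 ± 0.13 in PCs, -1.92 ± 0.16 in BG and -1.50 ± 0.16 in VA. GN did not lead over all labels. In nuclei labelled Endothelial_Tip.Dcn.Nnat, WT mouse 1 had 595 CPM of *Dnajc6* and SCA1 mouse 1 had 275, scaled as for the genotype comparison below. *Dnajc12* was called higher in GN at 31.9 ± 10.1 CPM, with a log2 difference of 1.32 ± 0.15, and no other main type had a mean above 14.2 CPM. *Hspbap1*, named for binding HSPB1, was higher in PCs (1.23 ± 0.13) and lower in GN (-1.17 ± 0.12). With library size alone, the differences in PCs were less than 2-fold for both *Dnajc6* (0.81) and *Hspbap1* (0.79).

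**Figure D2:**
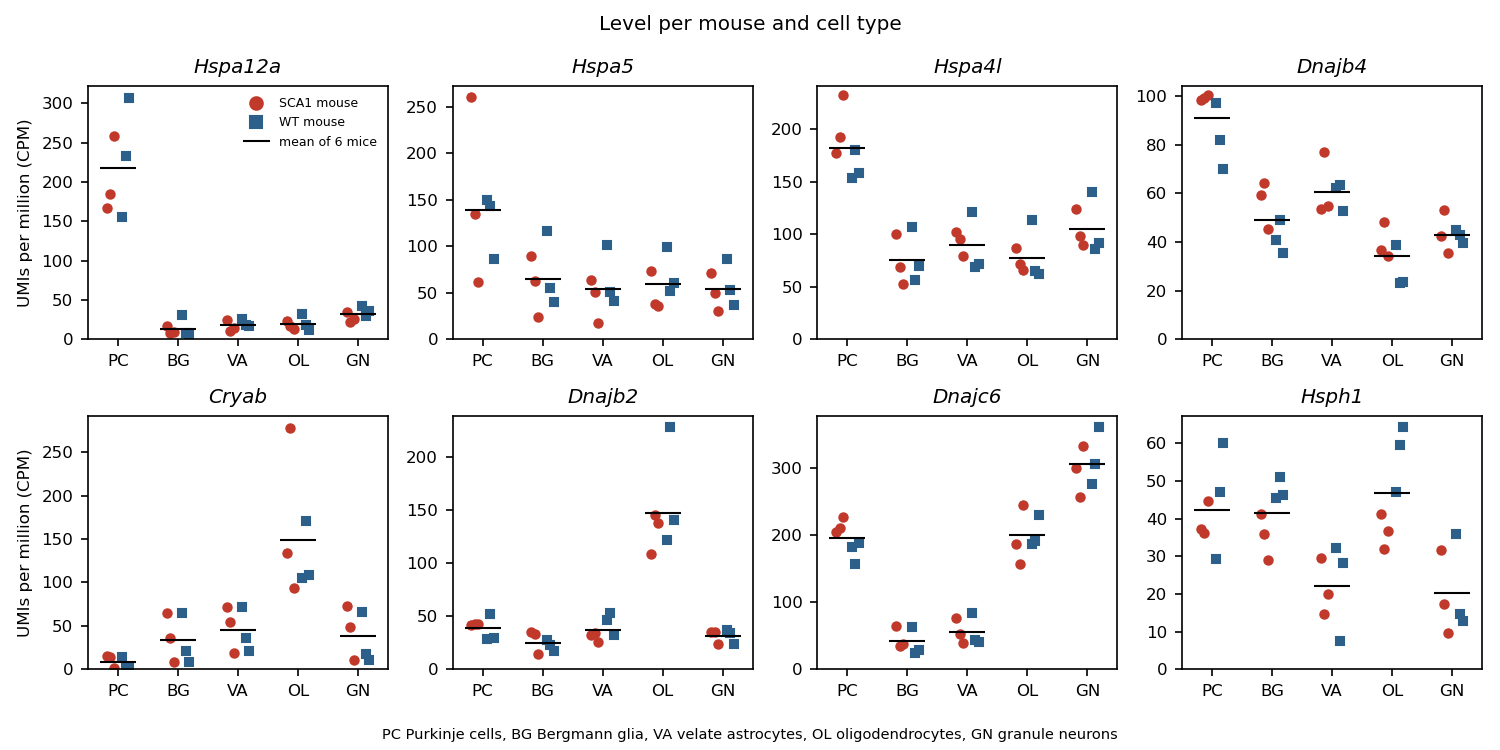
Level in CPM (vertical axes, from 0) of 8 members in 5 cell types (horizontal axes), with a circle for each SCA1 mouse, a square for each WT mouse and a line at the mean of the 6 mice. *Hspa12a* stands at 156 to 307 CPM in PCs and *Dnajb2* at 109 to 228 CPM in OL, above every mouse of the other 4 types shown, while *Dnajc6* is low in BG and VA.

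Other J-domain proteins moved less. *Dnaja1*, *Dnajb1*, *Dnajb5*, *Dnajb6*, *Dnajc3* and *Dnajc5*, the cysteine string protein of synaptic vesicles, were called in no type, with log2 differences between -0.61 and 0.72. Among the heat shock genes of mitochondria, *Hspd1* had log2 differences of -0.12 to 0.08 and *Hspe1* of -0.58 to 0.36. Their gene models overlap on opposite strands at the shared promoter.

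The 7 TRiC genes tested (*Cct2* to *Cct8*, with *Cct6a*) were called in no type. In PCs 6 of them had a log2 difference below 0 at an adjusted p of at most 0.05 but less than 2-fold, from -0.73 for *Cct2* to -0.35 for *Cct5*, and *Cct3* was at 0.25. By the same rule 39.1% of all genes were lower in PCs. The median of the 7 was -0.47 with TMM, -0.44 with RLE factors and -0.90 with library size alone, where *Cct3* also fell below 0, which is 0.33, 0.33 and 0.32 below the median of all genes. In OL all 7 were above 0, between 0.13 and 0.55 and under each scaling, of which 3 had an adjusted p of at most 0.05, as had 24.5% of all genes above 0. The members called in BG, VA, OL and GN came to 2, 2, 4 and 4. For higher calls these were 0%, 0%, 5% and 3.33% of the members tested against 12.9%, 13.7%, 10.8% and 10.1% of all genes, and for lower calls 3.33%, 3.33%, 1.67% and 3.33% against 8.44%, 5.51%, 12.8% and 16.9%. In each type the share of members called was below that of all genes in both directions.

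Within a type, members also differed between mice of the same genotype. *Hspa8* in GN was 561, 385 and 147 CPM in SCA1 mice 1, 2 and 3 and 597, 275 and 157 CPM in WT mice 1, 2 and 3. *Hspd1*, whose promoter is shared with *Hspe1*, had 70.5, 60.3 and 27.1 CPM and 84.7, 49.3 and 28.5 CPM in the same order, and *Hspe1* had 81.9, 72.1 and 22.2 CPM and 88.1, 50.4 and 20.6 CPM. Mouse 1 of each genotype is high and mouse 3 low for all 3 genes, and the genotypes overlap.

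The summed level of 97 cytosolic ribosomal protein genes in GN ran in parallel, at 16686, 14369 and 4916 CPM in the SCA1 and 17890, 10685 and 4745 CPM in the WT mice, and mitochondrial transcripts at 36992, 19895 and 5975 CPM and 49759, 15477 and 7784 CPM. Mice numbered 1 were taken as batch 1 and the others as batch 2. The smallest nucleus held 3890 and 3932 UMIs in the SCA1 and WT libraries of batch 1, and 1000 to 1739 UMIs in the libraries of batch 2. Among 56 members with a mean of at least 10 CPM in GN, 45 were higher in batch 1 than in batch 2, as were 5397 of 9295 genes in all. The 21 members whose gene spans less than 20 kb had a median batch difference of 0.60 on the log2 scale and the 35 longer ones of 0.16, compared with 0.37 and -0.01 for all genes. Longer genes varied less over mice, with a Spearman rho of -0.66 across the 56 members and -0.44 across 9295 genes in the same libraries, which are not independent points. The part of ribosomal and mitochondrial RNA, batch, the minimum of UMIs per nucleus or gene length in these differences was not tested.

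**Figure D3:**
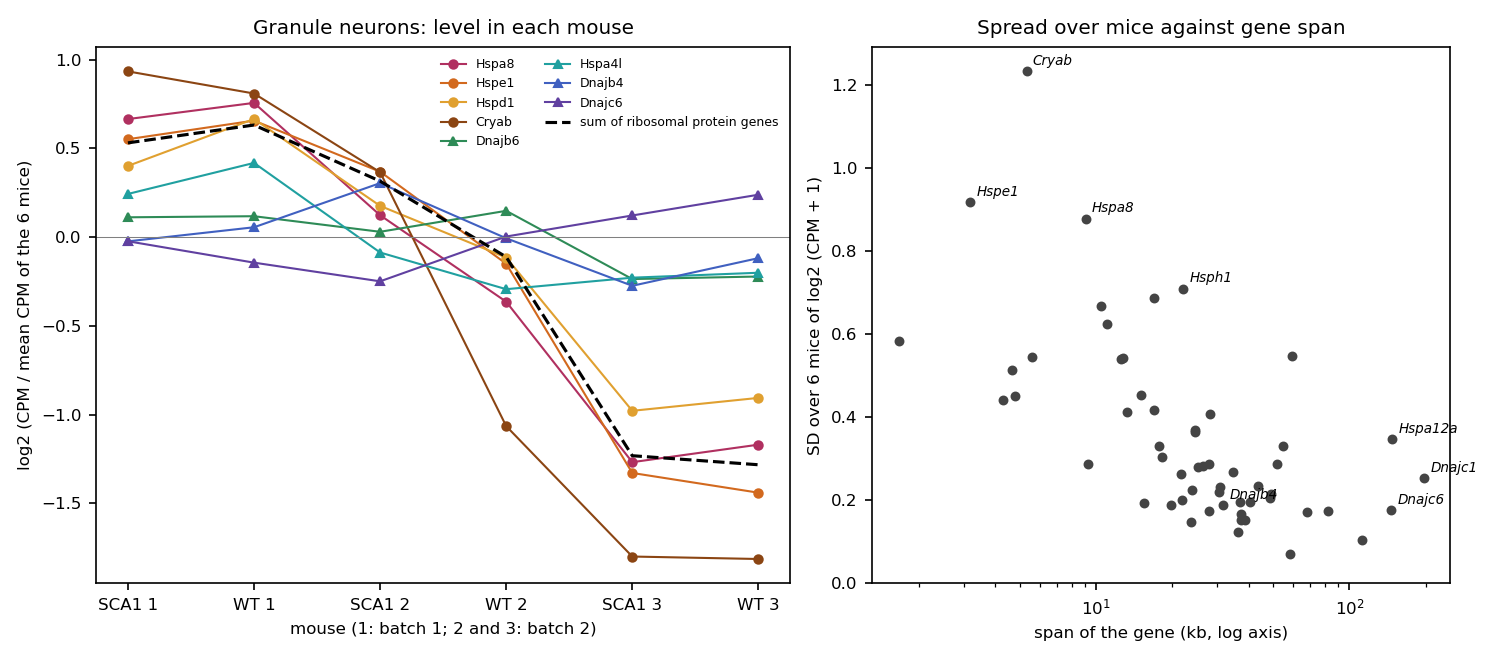
Left, log2 of the level of 8 members and of the summed ribosomal protein genes (dashed) in GN of each mouse over the mean of the 6 mice. Right, SD over the 6 mice of log2(CPM + 1) against the span of the gene in kb (log axis), 1 point per member. *Hspa8*, *Hspe1* and *Cryab* are high or low in the same mice as the ribosomal genes, and short genes have the larger SDs.

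SCA1 mice were then compared with WT mice within each type, to ask whether chaperone transcripts differ in cells that carry mutant ATXN1 or lie beside it, with batch as a term and levels scaled by TMM, a factor that adjusts for differences in composition. None of the members was called at an adjusted p of at most 0.05 by edgeR in any of the 5 types, with 54, 59, 57, 57 and 73 members tested in PCs, BG, VA, OL and GN, and DESeq2 and limma-trend on the same sums called 0 as well. Calls over all genes were as rare, 0% in PCs, BG and VA, 0.00917% in OL and 0.00566% in GN. At an unadjusted p under 0.05 there were 1 of 54, 0 of 59, 0 of 57, 2 of 57 and 1 of 73 members, against 6.65%, 1.71%, 1.01%, 0.807% and 1.77% of all genes.

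In PCs the median log2 fold change of the members was 0.09, compared with 0.02 for all genes, and 37 members were above 0 and 17 below. The share of all genes above 0 was not counted, and members of the same libraries are not separate observations. *Dnaja3*, a mitochondrial J-domain protein, had 39.1, 40.2 and 40.9 CPM in SCA1 mice 1, 2 and 3 and 25.8, 31.6 and 29.4 CPM in the WT mice. The ER reductase gene *Dnajc10* had 40.9, 43.7 and 38.5 CPM and 33.5, 29.0 and 31.5 CPM. For both, every SCA1 mouse lay above every WT mouse, with log2 fold changes of 0.48 ± 0.23 and 0.38 ± 0.23 (SE) and adjusted p of 0.80 and 0.93, and these 2 were 3.7% of the members against 10.3% of all genes with no overlap in either direction. *Hspa14*, a ribosome-associated HSP70 that is named here because its unadjusted p was 0.044, had 31.7, 21.0 and 35.5 CPM in SCA1 and 59.9, 44.8 and 34.7 CPM in WT mice, so that the groups overlapped.

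*Hspa5* in PCs was 232, 128 and 63.4 CPM in SCA1 and 149, 157 and 101 CPM in WT mice, with a log2 fold change of -0.05 ± 0.32. Within batch 1 the log2 ratio of SCA1 to WT was 0.63 and within batch 2 it was -0.43. *Hspa8* had 179, 231 and 66.9 CPM in SCA1 and 168, 146 and 120 CPM in WT mice, and *Cryab* 13.4, 13.1 and 1.78 CPM and 14.5, 2.63 and 2.10 CPM. The groups overlapped for all of these. Of the 54 members, 41 had a 95% confidence interval within 2-fold either way, and the intervals of the rest reached a 2-fold change. These intervals were back-calculated from the test and can be too narrow, so that 41 may be too many.

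In BG, which wrap PC dendrites, *Hsph1* had 38.0, 35.3 and 31.7 CPM in SCA1 mice 1, 2 and 3 and 42.2, 53.5 and 52.8 CPM in the WT mice. All SCA1 mice lay below all WT mice, with a log2 fold change of -0.46 ± 0.24 and an adjusted p of 1.0. *Dnajc18* had 51.0, 40.3 and 54.6 CPM and 59.7, 75.3 and 65.0 CPM in the same order, and *Dnajc16* 18.2, 21.6 and 20.7 CPM and 24.7, 21.8 and 21.7 CPM, without overlap either. These 3 were 5.08% of the members against 4.7% of all genes, and the median over all members was -0.01.

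In VA, *Dnajb2* had 31.8, 33.5 and 28.1 CPM in SCA1 and 46.7, 53.2 and 35.3 CPM in WT mice, with a log2 fold change of -0.52 ± 0.27. *Dnajc11*, a protein of the inner mitochondrial membrane contact sites, was also below in every SCA1 mouse (-0.23 ± 0.28) and *Dnajb12*, of the ER membrane, above in every one (0.25 ± 0.29). They were 5.26% of the members against 4.58% of all genes. For *Dnajb12* the lowest SCA1 mouse had 27.1 CPM and the highest WT mouse 27.0 CPM, so that the groups are separated by a margin far below their SDs of 2.95 and 0.901 CPM.

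In OL, *Hsph1* had 39.4, 31.4 and 39.5 CPM in SCA1 and 45.8, 61.3 and 70.3 CPM in WT mice. The groups did not overlap, the log2 fold change was -0.63 ± 0.25, and the adjusted p was 1.0 (unadjusted 0.029). *Hspb11*, a subunit of intraflagellar transport in spite of its name, was above in every SCA1 mouse, with 32.2, 26.1 and 34.0 CPM and 25.3, 24.0 and 20.4 CPM, and a log2 fold change of 0.41 ± 0.28. *Hspa5* had 70.3, 37.6 and 38.8 CPM and 96.1, 53.3 and 66.5 CPM, with overlap, a log2 fold change of -0.58 ± 0.22 and an unadjusted p of 0.025. Members without overlap were 3.51% of those tested, all genes 3.56%. *Cryab*, called higher in OL than in other types, had 128, 273 and 101 CPM in SCA1 and 102, 176 and 119 CPM in WT mice, with a log2 fold change of 0.35 ± 0.35 that was -0.12 without SCA1 mouse 2.

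In GN, where the sums are deepest, 73 members could be tested and the median log2 fold change was -0.02. *Dnajb12* (27.8, 27.2 and 26.1 CPM against 25.9, 25.9 and 24.1 CPM) and *Hspa1l* (0.376, 0.642 and 0.452 CPM against 0.210, 0.273 and 0.169 CPM) lay above in every SCA1 mouse, 2.74% of the members against 3.2% of all genes. *Hspa1l*, a testis HSP70 adjoining the *Hspa1a* and *Hspa1b* genes, had a log2 fold change of 1.09 ± 0.41 on these few counts and an adjusted p of 1.0. *Hspa1a* was at 2.93, 2.79 and 0.791 CPM and 3.06, 1.30 and 0.394 CPM, and *Hspa1b* at 1.04, 0.610 and 0.198 CPM and 1.42, 0.547 and 0.112 CPM, both with overlap. The small heat shock proteins *Hspb1*, *Hspb6* and *Hspb8* had log2 fold changes of 0.51 ± 0.58, 0.26 ± 0.39 and -0.18 ± 0.28 in GN, the only main type where their sums passed the filter of the edgeR test.

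*Hsph1* was below 0 in all 5 types, with log2 fold changes of -0.32, -0.46, -0.17, -0.63 and -0.14 in PCs, BG, VA, OL and GN, and so was *Hspa5*, with -0.05, -0.29, -0.55, -0.58 and -0.24. These values come from the same 6 libraries, which hold RNA of all types, so they are not 5 separate observations, and none was called. In PCs neither direction was steady. *Hsph1* was at 0.18 within batch 1 and -0.60 within batch 2, and *Hspa5* was at 0.14 with library size alone, at 0.062 without the batch term, at 0.29 without SCA1 mouse 3 and at 0.24 without WT mouse 2. *Hspa8* was between 0.10 and 0.27 in the 5 types, but at -0.47 in PCs and -0.30 in BG without SCA1 mouse 2, and in BG, VA, OL and GN its ratio was below 1 within batch 1 and above 1 within batch 2. *Hspd1* was between -0.14 and 0.16 and *Hspe1* between 0.03 and 0.34.

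Other members were named by the rule whatever their values. *Dnaja1* lay between -0.18 and 0.14, *Dnajb6* between -0.20 and -0.02, *Dnajc3* between -0.41 and -0.01, *Dnajc5* between -0.20 and 0.11, *Dnajc6* between -0.11 and 0.23 and *Dnajb4* between -0.01 and 0.39. *Dnajb1*, a main HSF1 target, was at -0.19, -0.58 and -0.12 in BG, OL and GN, and *Dnajb5* at 0.40 and 0.16 in PCs and GN. *Hspa9* lay between -0.12 and 0.11 and *Hspa4l* between -0.14 and 0.11. Of the TRiC subunits, *Cct2* lay between 0.02 and 0.40, *Cct4* between -0.27 and 0.05, *Cct6a* between -0.23 and 0.17 and *Cct8* between -0.17 and 0.49.

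**Figure D4:**
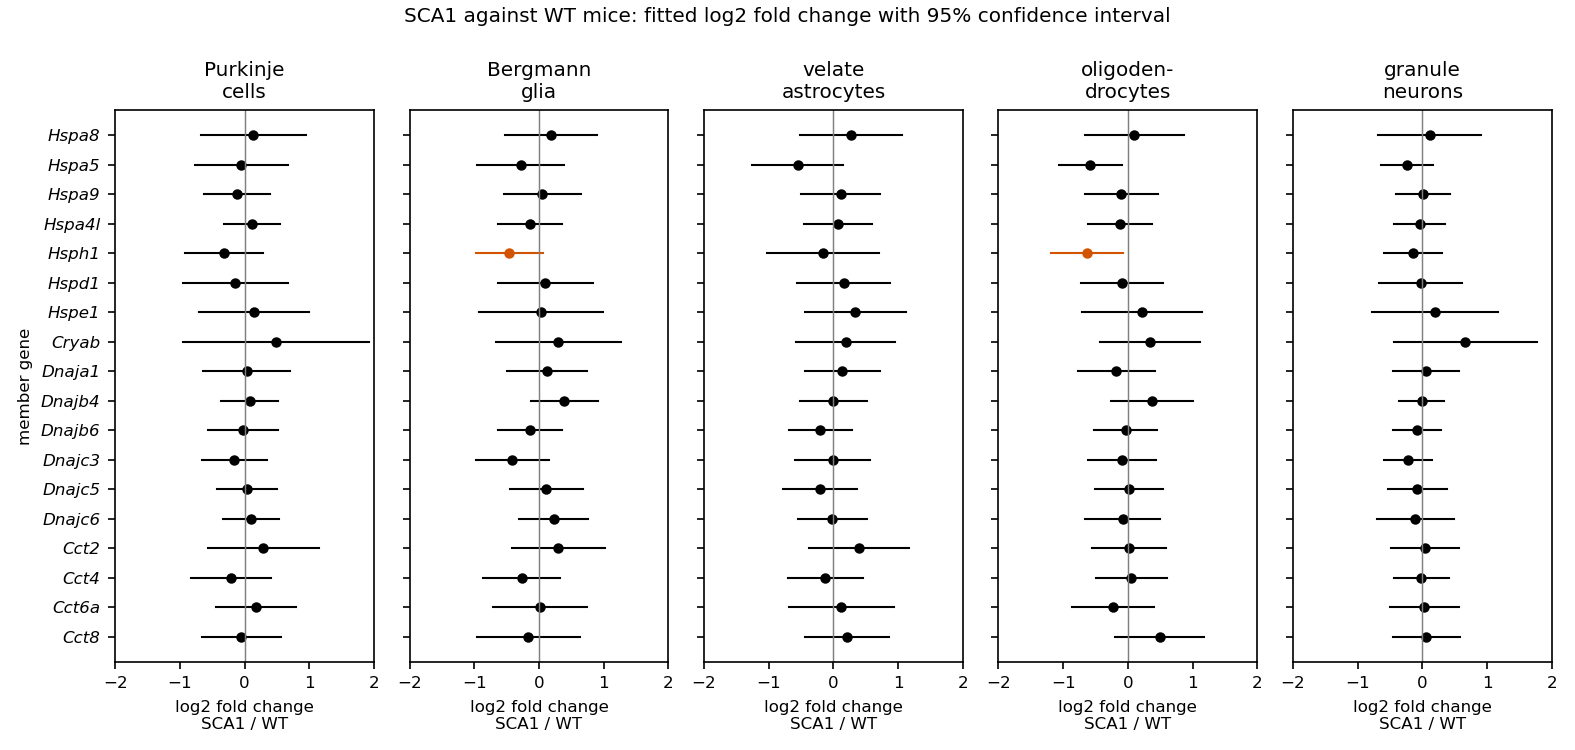
Fitted log2 fold change of SCA1 over WT mice (horizontal axes, points) with its 95% confidence interval (lines) for 18 members (vertical axis) in 5 cell types (panels), in orange where no SCA1 mouse overlapped a WT mouse. Every interval spans 0 except those of *Hspa5* and *Hsph1* in OL, and neither was called.

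An interaction term asked whether the genotypes differed otherwise in a type than in GN. None of 65 members was called in PCs, BG and VA or of 66 in OL. At an unadjusted p under 0.05 there were 3 of 65, 0 of 65, 0 of 65 and 1 of 66, against 4.66%, 1.15%, 1.45% and 1.03% of all genes. In simulated counts with the depth of these sums, the interaction test recovered 41.5% to 47.5% of changes of 1.5 on the log2 scale and the comparison within a type 76% to 92%. The simulated mice shared a common profile per type, with a fixed spread, no batch effect and no mouse effect, and only genes with enough counts were changed. Recovery in the real data may thus be lower. Smaller changes were not simulated.

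A further 56 genes of protein folding, among them the HSP90 proteins, HSF1 and the sensors of ER stress, were not called either, with 51, 53, 52, 52 and 56 tested in PCs, BG, VA, OL and GN. *Hsp90aa1* had log2 fold changes of 0.42, 0.19, 0.22, 0.03 and 0.17 in this order. The ER chaperone *Hyou1* was the only one of them at an unadjusted p under 0.05, at -0.94 ± 0.42 in BG.

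Another 6 labels had at least 20 nuclei in every mouse, and no member was called between genotypes in these, of 46 to 59 tested in each, against 0% of all genes. Members without overlap came to 5.08% in the label Neuron.Gad1Gad2.Pvalb-Nefh, 3.39% in Neuron.Slc17a6.Nrgn, 5.56% in Neuron.Gad1Gad2.Pvalb-Rab3b, 8.7% in Neuron.Gad1Gad2.Pvalb-Cadm1, 3.92% in Neuron.Gad1Gad2.Pvalb-Chrm2 and 4.17% in Endothelial_Tip.Dcn.Nnat. Over all genes tested the same shares were 3.91%, 5.24%, 5.05%, 5.41%, 6.65% and 5.73%. Levels of some members that were low in the main types were higher in 1 of them. In the 242 nuclei labelled Endothelial_Tip.Dcn.Nnat, *Hspa12b*, a relative of HSP70 known from blood vessels, had 59.4, 65.6 and 58.3 CPM in SCA1 and 21.0, 52.7 and 58.4 CPM in WT mice. No mouse exceeded 8.44 CPM in any other of the 11 labels. *Hspb8*, partner of BAG3, had 16.4, 21.0 and 32.6 CPM and 18.7, 52.7 and 54.3 CPM, and at most 6.42 CPM elsewhere. These genes are named because their mean was at least 2 times that of every other label, a rule set after the values were seen and given without a test.

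*Hspb1*, the heat-inducible HSP27, had 10.2, 36.7 and 6.86 CPM in SCA1 and 16.4, 13.2 and 0 CPM in WT mice of that label on 32 UMIs in all, and *Dnajc5b* 38.9, 15.7 and 5.14 CPM and 7.01, 32.9 and 20.9 CPM on 41 UMIs. Their means were 13.9 and 20.1 CPM, against 2.29 and 1.02 CPM in the next label, though some mice overlapped with other labels. *Hspb2*, *Hspa1a*, *Dnajc25* and *Dnajc14* also had their highest mean there. Markers of these nuclei were mixed: *Vtn* was at 301, *Flt1* at 101 and *Pdgfra* at 110 CPM, but the endothelial genes *Cldn5* and *Pecam1* at 1.32 and 2.20 CPM, below or near their levels in neurons, so that the nuclei are called here by their label and not by a cell type. The label was the most frequent one of a Seurat cluster in 5 of the 6 mice, and in WT mouse 3 of none.

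**Figure D5:**
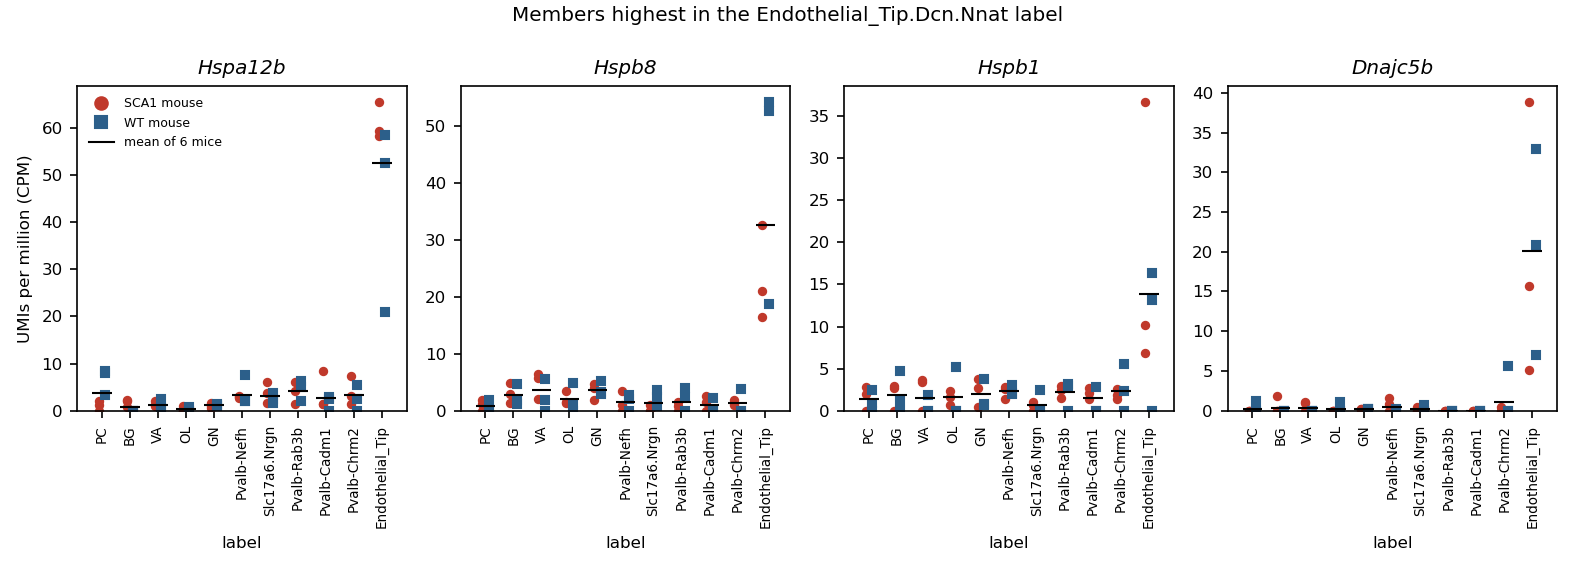
Level in CPM (vertical axes, from 0) of 4 members in 11 labels (horizontal axes), with a circle for each SCA1 mouse, a square for each WT mouse and a line at the mean. *Hspa12b* reaches 21.0 to 65.6 CPM in the Endothelial_Tip.Dcn.Nnat label and at most 8.44 CPM elsewhere.

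Nuclei of 1 mouse are not replicates, but limma-trend on nuclei, the kind of test used by the study, takes them as such. It was run here on all nuclei with a label, while the study kept only nuclei whose label also fitted their Seurat cluster, so these are not the study's own calls. In this run 5 differences were called. These were *Hspa14* (-0.41) and *Hspa12b* (-0.16) in PCs, *Dnajc1* (0.21) and *Dnajb4* (0.12) in BG and *Cryab* (0.20) in OL, as differences of mean log2 values per nucleus. They are 2 of 79, 2 of 77 and 1 of 78 members tested, against 2%, 1.64% and 0.858% of all genes called by the same test, and 0 of 79 in VA against 0.722%. *Cryab* in OL had an adjusted p of 0.0032 by limma-trend on nuclei, while SCA1 mouse 2 alone stood above the highest WT mouse. The paper also reports *Cryab* as increased in SCA1 oligodendrocytes, and reads this with *ApoE* as a sign of protective reactive gliosis.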

How the data were processed

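The authors deposited UMI counts per gene and nucleus for 6 mice as whole numbers, not normalized, with a SingleR label per nucleus. Per the paper's methods, reads were aligned with CellRanger to mm10 with human *ATXN1* added, introns were counted, and debris was removed with DIEM. The minimum was raised to 3000 UMIs only for a pair of samples from its first sequencing run, which the paper does not name. Only the libraries of mice 1 held no nucleus under 3000 UMIs, with smallest nuclei of 3890 (SCA1) and 3932 UMIs (WT). The submitters' processing notes name Cell Ranger 4.0.0, 5.0.1 and 6.0.1 and Seurat 4.0.4. Here counts were summed per mouse and label and tested with edgeR 4.0.16 (R 4.3.3, quasi-likelihood, TMM, filterByExpr with minimum count 10 and total 15, Benjamini-Hochberg over all genes tested): genotype with batch as a term, and levels across types with mouse as a term. SEs were back-calculated from the log2 value and the F statistic of the edgeR test, and confidence intervals from those SEs. They are too narrow for genes whose p is larger than F alone gives. An example is *Dnaja2* in PCs across types (-0.10 ± 0.07, p 0.41 by edgeR). Batches follow the numbers that the labels give to libraries, which do not call them batches. Whether mice of a genotype shared a litter is not given.

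Plain CPM are used for levels across types and TMM-scaled CPM for genotypes. Gene models are from the GRCm38 annotation (81 of 82 members matched) and promoters from RefSeq. Members, lists and the rule for named genes were chosen with earlier results of these data known. By that rule, the text names members without overlap between genotypes (up to 3 each way per type), the called members with the largest level differences, and 25 fixed members of all roles. Alternatives were RLE factors, library size only, no filter, nuclei whose label was that of most nuclei of their Seurat cluster, nuclei of at least 3000 UMIs, each mouse left out, no batch term, replicate number as a block, DESeq2 1.42.0, and limma-trend (limma 3.58.1) on sums (prior count 2) and on all nuclei of a label normalized by scran 1.30.0, the model of the study, which tested only nuclei whose label and Seurat cluster matched. It was not run for GN. Doublets were not called. edgeR was tested on simulated counts with 200 genes changed.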

Additional observations from a re-analysis of the deposited data

How the results depend on the processing

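The lack of member calls between genotypes held for each of the 5 types under RLE factors, library size alone, no low count filter, nuclei chosen by label or by at least 3000 UMIs, no batch term, DESeq2, limma-trend on sums and each mouse left out (0 to 0), and the 4 interaction tests also stayed at 0 under the alternatives run for them. Only limma-trend on nuclei called members, 2 in PCs, 2 in BG and 1 in OL. Single values were less steady. The log2 fold change of *Hspa5* in PCs was 0.14 with library size alone, 0.062 without the batch term and 0.11 on nuclei, and from -0.44 to 0.29 with a mouse left out. That of *Hspa8* in PCs was -0.025 by limma-trend on sums and from -0.47 to 0.50 with a mouse left out, that of *Hspa8* in BG from -0.30 to 0.42 and that of *Cryab* in OL from -0.12 to 0.66, where the negative values of the last 3 came without SCA1 mouse 2. The cause was not tested.

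Calls of level in PCs rose from 8 to 16 with library size alone (4 higher, 12 lower) and to 15 with no filter (8 higher, 7 lower), and calls in VA from 2 to 5 with no filter, which tests more genes. With a mouse left out they ranged from 9 to 11 for PCs, from 3 to 5 for GN, from 3 to 4 for OL and from 2 to 3 for BG as for VA. The shares of all genes called under these alternatives were not counted, so these counts of members have no background beside them. *Dnajc6* (0.81) and *Hspbap1* (0.79) in PCs were less than 2-fold with library size alone.

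With a replicate block in place of batch, 0 members were called in each type, so it changed no call. The labels give mice of both genotypes the same numbers without saying what they share. Deviations of same-numbered mice correlated at 0.67, 0.07 and 0.50 in PCs and 0.87, 0.26 and 0.78 in GN for numbers 1, 2 and 3. All 3 exceeded 0.1 in VA and GN but not in PCs, BG and OL. Batch was not removed from these deviations, and the mice numbered 1 are those taken as batch 1. Within batch 2, SCA1 mouse 3 and WT mouse 2 correlated at 0.39 in GN and 0.08 in PCs, above the values for number 2. SCA1 mouse 2 and WT mouse 3 correlated at -0.19 and -0.07.

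Without a mouse of batch 1, the other mouse of that batch adds nothing to the genotype contrast. The comparison in PCs rests on 29 to 76 nuclei per mouse, and the interval, as back-calculated, of 13 of 54 members there reached a 2-fold change. RNA of other cells was present in every label, and its share was not measured.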

Other observations

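Outside the 5 main types, 2 members differed between genotypes without overlap by about 2-fold, and neither was called. *Dnajc6*, which encodes auxilin, had 275, 256 and 263 CPM in SCA1 mice 1, 2 and 3 and 595, 422 and 578 CPM in the WT mice in nuclei labelled Endothelial_Tip.Dcn.Nnat. The log2 fold change was -1.01 ± 0.26 (SE, n = 3 mice per genotype), with an unadjusted p of 0.0026 and an adjusted p of 1.0 by edgeR, and it was -1.11 within batch 1 and -0.95 within batch 2. The Endothelial_Tip.Dcn.Nnat label held 24 to 48 nuclei per mouse and was the most frequent one of no Seurat cluster in WT mouse 3. *Dnajc6* and *Dnajc14* were the only members of this label without overlap, 4.17% of 48 tested against 5.73% of all genes. *Hsph1* had 15.0, 7.59 and 13.2 CPM in SCA1 and 25.7, 28.8 and 24.8 CPM in WT mice in interneurons labelled Neuron.Gad1Gad2.Pvalb-Rab3b, with a log2 fold change of -1.08 ± 0.40, an unadjusted p of 0.020 and an adjusted p of 1.0. This label was the most frequent one of no Seurat cluster in any of the 6 mice, so that 0 of its nuclei remain when label and cluster have to match. There, 3 of 54 members did not overlap, 5.56% against 5.05% of all genes. These members were picked for their size after the values were seen.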
